A study of Vitis vinifera and Vitis quinquangularis with 24 samples.

Results

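The last step of ripening was followed in the berry skin of Cabernet Sauvignon, a red wine grape of the species Vitis vinifera. Ripe berries at E-L 38 of the Eichhorn-Lorenz scale, the stage of harvest, were set against berries at E-L 35, the stage at which they begin to colour. The samples were chosen by cultivar and stage in the labels, 3 libraries of the ripe stage and 3 of the earlier one, 6 of the 24 RNA sequencing libraries of the study. The other libraries are 3 each of Cabernet Sauvignon at E-L 33, with hard green berries, and E-L 34, with berries that begin to soften, and 3 each of the wild Chinese grape Vitis quinquangularis accession Danfeng-2 at the same 4 stages. The labels name no treatment, plant age or field. Whether a stage's libraries are separate vines or pools is not labelled, so the p-values speak of library-to-library spread alone, and that may be technical.

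Berry ripening is background to the comparison. As colour sets in, sugar accumulates, acids decline and the skin of a red grape begins to make anthocyanins through the phenylpropanoid and flavonoid pathway. Stilbenes such as resveratrol, the compound that the title of the series names, branch off the same pathway. Several enzymes of these branches, stilbene synthases and flavonoid 3',5'-hydroxylases among them, are encoded in grape by tandem arrays of similar genes. The files give gene models by identifier and position and pair none with a name, and 0 of 27711 identifiers matched the RefSeq table of assembly ASM3070453v1. Models are therefore given by identifier or by the position the files list, on a build that no label names. For the same reason the labelled tissue could not be checked against marker genes, and pathway genes were not analysed by name.

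Total counts ran from 15362928 to 16081679 in the E-L 38 libraries and from 15615399 to 18804492 in the E-L 35 libraries. Between partner libraries of these stages the correlation of log2 levels across models was 0.995 to 0.997, and the chi-square of their counts was over 1 per degree of freedom in each pair (1.56 at least in the whole series), so none was merged. In 3 libraries of other groups (replicate 3 of Cabernet Sauvignon E-L 34, and replicate 1 of both E-L 33 and E-L 35 of Danfeng-2) the correlation with their partners was 0.941 to 0.973. They stand apart from their groups, and values that rest on them are also given without them where they moved by over 1.5 times or bear on a count below.

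More models fell than rose as the berries ripened. Of 18375 tested models, 667 were higher and 1283 were lower in ripe (E-L 38) skin than at the onset of colour (E-L 35). That is 3.63% higher and 6.98% lower, 10.6% in all, at a Benjamini-Hochberg adjusted p below 0.05 in edgeR's quasi-likelihood test, with a minimum change of 2-fold. The median log2 fold change was 1.498 for the models that rose and -1.87 for those that fell (1.48 and -1.84 with models of 0 counts in 1 stage set to a bound), and 0.01 over all tested models. Large changes were mostly downward, with 304 models at least 8-fold lower, 23.7% of those that fell, and 54 at least 8-fold higher, 8.1% of those that rose. These counts also set models of 0 counts to a bound, taken at a floor of 3 counts over the 3 libraries. In skin taken whole, fewer cells of a type and less RNA per cell cannot be told apart. Without the 2-fold minimum the directions were nearly even, at 2834 higher and 2898 lower. The 3 libraries that stand apart are outside this comparison but share its estimate of spread. In a fit without them, 875 models were higher and 1643 lower, of 18576 tested.

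**Figure D1:**
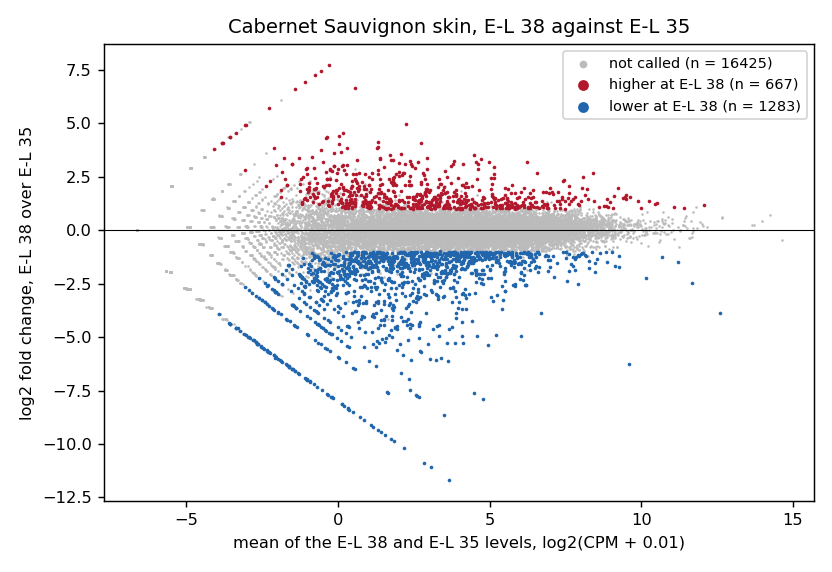
Each point is 1 of 18375 tested gene models in Cabernet Sauvignon skin. The horizontal axis is the mean of its E-L 38 and E-L 35 levels as log2(CPM + 0.01), and the vertical axis is its fitted log2 fold change, E-L 38 over E-L 35. The 1283 models called lower reach further from 0 than the 667 called higher; the straight diagonal edges are models with 0 counts in 1 stage, whose fitted fold change depends on a small added count.

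The libraries of the 2 stages kept apart for most models. For 63.6% of all tested models every E-L 38 library lay above or below every E-L 35 library, and for 98.9% of the called ones, a share that calling raises by its nature. The models that rose took 4.89%, 4.93% and 4.99% of all counts in the ripe libraries and 2.03%, 2.04% and 2.01% in the colour-onset libraries. The models that fell took 1.49%, 1.48% and 1.56% in ripe skin, against 5.80%, 5.78% and 5.77% at colour onset. The models were chosen from these same libraries, so the direction of these shares was fixed and they are a description. The most abundant transcripts were largely the same at both stages. The 10 models of highest count took 10.8% ± 0.226 of all counts in ripe skin and 10.4% ± 0.120 at colour onset (SD, n = 3 each), and 8 of them were shared. Of the 10 in ripe skin, 1 was called higher, and of the 10 at colour onset, 2 were called lower.

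The models with the highest and the lowest fold change, among those called, of at least 20 CPM (counts scaled to library size) in the higher stage and with no overlap of the libraries, show how sharp single changes were. VIT_11s0016g01560 on chromosome 11, from 1259786 to 1288334 on the plus strand, had 38.1, 34.7 and 50.3 CPM in the ripe libraries and 3.39, 2.76 and 4.60 CPM in the colour-onset libraries. The stages did not overlap, and the log2 fold change was 3.51 ± 0.39 (SE, adjusted p = 1.9e-06 from edgeR). Its course was not a steady rise, since its mean was 0.106 ± 0.103 CPM at E-L 33 but 27.6 ± 9.20 CPM a stage later (SD, n = 3 each). At E-L 34 replicate 3 had 16.98 CPM against 32.0 and 33.7 in its partners. In the files 2 other models overlap it, so its reads may be shared with them. VIT_00s0323g00070, on no assigned chromosome, from 23332325 to 23333231, had 45.8, 48.0 and 50.7 CPM in ripe skin and 4.95, 5.39 and 4.08 CPM at colour onset. Its level was at most 0.422 CPM in every Cabernet Sauvignon library of E-L 33 and E-L 34, so the ripe libraries were its highest and the E-L 35 libraries came next. Its log2 fold change in the last step was 3.33 ± 0.58 (SE, adjusted p = 0.00023 from edgeR).

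Both models with the deepest falls reached 0 counts, or nearly so, in ripe skin. VIT_04s0210g00060 on chromosome 4, from 20460141 to 20462469 on the plus strand, had 0 counts in all 3 E-L 38 libraries and 24.2, 26.1 and 25.2 CPM in the colour-onset libraries. It was at least 343-fold lower in ripe skin, taking 3 counts over its libraries as the floor (adjusted p = 0.00045 from edgeR). VIT_06s0080g00980 on chromosome 6, from 21055066 to 21057465, had 0, 0 and 0.149 CPM in ripe skin, 2 counts in all, and 20.6, 24.1 and 22.5 CPM at colour onset. Its level was 450.1-fold lower, with an exact 95% counting interval of 126.4 to 3784.5 that covers counting error only (adjusted p = 0.0026 from edgeR). Both counts came from E-L 38 replicate 3, so the fitted log2 fold change, -8.63, was -11.52 without that library and is no measure of size. At E-L 34 both models split the group: replicate 3, a library that stands apart, had 16.4 and 48.6 CPM of them, and its partners 0.0438 and 0.141 CPM of the first and 0.175 and 0 of the second. At E-L 33 their means were 5.12 ± 0.191 and 52.5 ± 1.73 CPM (SD, n = 3). The adjusted p-values of both models also rest on libraries outside the comparison, through the shared estimate of spread. In an edgeR fit of the compared groups alone these adjusted p-values were 4.6e-12 and 3.6e-12.

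**Figure D2:**
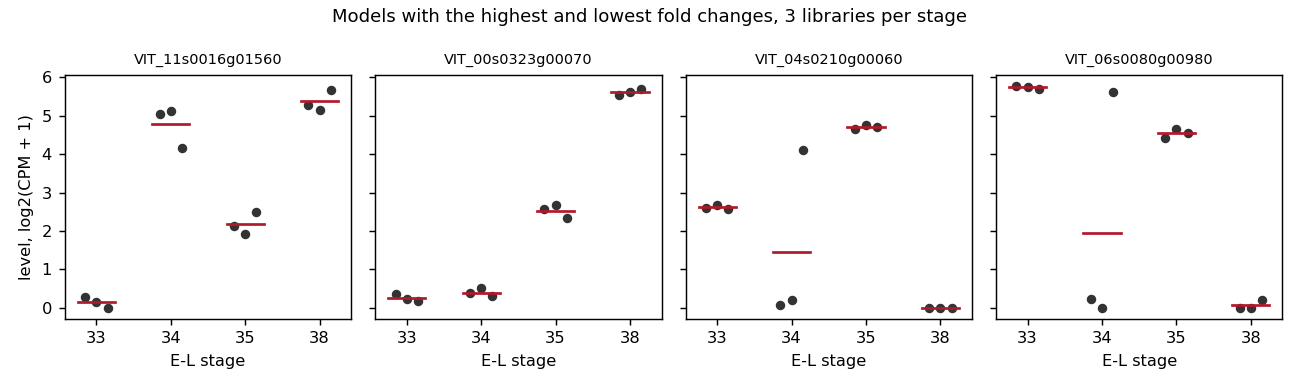
Level of 4 gene models as log2(CPM + 1) in every Cabernet Sauvignon library, by stage; points are libraries and red bars are means of 3. The 2 models on the left rose and the 2 on the right fell between E-L 35 and E-L 38 with no overlap of the libraries, and at E-L 34 a single library lies far above its partners in the 2 on the right.

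A group of 88 models had 0 counts in all 3 E-L 38 libraries and was called lower, and 15 models had 0 counts in all 3 E-L 35 libraries and were called higher. Most of them were low where they were read. The median was 0.630 CPM at colour onset for the models that were lost, with 30 at 1 CPM or more, and 0.218 CPM in ripe skin for those that appeared, with 3 at 1 CPM or more. At this depth 0 counts do not show that a transcript was absent. Allowing up to 3 counts over the 3 libraries gave 196 and 28 models.

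Low and moderate levels held most of the changes. Tested models were cut by their mean over all 24 libraries into 4 sets of like size. In the lowest set, 11.6% fell and 6.2% rose, and in the highest set, over 49.8 CPM, 3.66% fell and 1.96% rose. Model length went with the rise but not with the fall. Of models up to 1143 bp 5.46% rose, and of those from 2507 bp 2.2% rose, while the falling share was 6.39% and 7.49% in the same length classes. The median length was 1421 bp in the models that rose, 1723 bp in those that fell and 1710 bp in all tested models. Models whose identifier marks them as new genes, unlike the VIT identifiers of the rest, were more often called higher. Of 553 such models tested, 56 rose (10.1%, against 3.43% of the others) and 43 fell (7.78%, against 6.96%). Their median length was 1257 bp, against 1722.5 bp in the others, and those that rose had a median of 2.37 CPM in ripe skin and 0.678 CPM at colour onset. The part of length and level in these shares was not tested.

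The levels at E-L 33 and E-L 34 describe where the changed models came from. They did not enter the fold changes, but their libraries share the filter and the estimate of spread. They thus bear on which models were called. Of the 1283 models that fell, 560 (43.6%) had their highest mean at colour onset and 534 (41.6%) at E-L 33, against 18.7% and 28.7% of all tested models. At colour onset, 352 of them (27.4%) were at least 2-fold above each of the other 3 stages, a short peak at the onset of colour, as were 2.94% of all tested models. In ripe skin, 676 of the 1283 (52.7%) were at least 2-fold below every earlier stage, as were 7.61% of all tested models. That the models were chosen for a lower level in ripe skin than at colour onset favours all these patterns, which are a description. No falling model could have its highest mean in ripe skin, where 29% of all tested models had theirs. The shares of all models by highest stage are thus no like measure for the falling set, at E-L 33 as well. Without E-L 34 replicate 3 the counts of the 2-fold patterns were 357 and 607.

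Of the 667 models that rose, 477 (71.5%) had their highest mean in ripe skin and 131 (19.6%) at E-L 34, against 29% and 23.6% of all tested models. For 294 of them (44.1%, against 2.62% of all) the E-L 38 mean was at least 2-fold above each of the other stages. In 265 of them (39.7%, against 19.8% of all) the E-L 34 mean was at least 2-fold above the E-L 35 mean, and in 155 (23.2%, against 17% of all) it was the other way round. The rising set was chosen for a level at colour onset below that of ripe skin. This choice itself favours a highest mean in ripe skin and an E-L 34 mean above that of E-L 35. No rising model could be highest at colour onset, where 18.7% of all tested models were. The shares of all models by highest stage are thus no like measure here either. Without E-L 34 replicate 3 the 3 counts of the 2-fold patterns were 292, 273 and 165. The median level of the rising models, as log2(CPM + 1), was 1.86, 2.44, 2.04 and 3.39 over the 4 stages in order. In the falling models it was 2.80, 2.09, 2.82 and 1.22 at the same stages, while over all tested models it stayed between 3.94 and 4.05. Without E-L 34 replicate 3 the E-L 34 medians were 2.37 for the rising and 1.82 for the falling models. The opposite moves of the sets into colour onset are favoured by the choice of models, low there in the one set and high in the other.

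**Figure D3:**
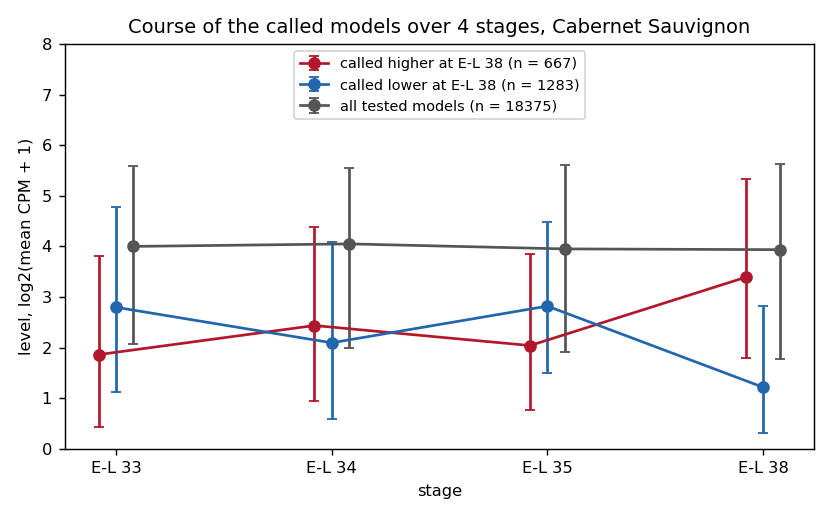
Median level, as log2(mean CPM + 1), of the 667 models called higher, the 1283 called lower and all 18375 tested models in Cabernet Sauvignon at the 4 stages; bars are the lower and upper quartiles over models. The rising models dip between E-L 34 and E-L 35, where the falling models go up, which the use of E-L 35 in choosing them favours, and both sets lie below the median of all models at every stage.

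The step from E-L 33 to E-L 34 compares none of the libraries of the last step, so the calls of both can be set side by side. Both steps share a filter and an estimate of spread over all libraries, so their calls are not fully independent. On that early step 19% of all tested models were called. Of the models that fell in the last step, 470 had also fallen from E-L 33 to E-L 34, 36.6% of them, where 11.6% of all tested models fell on that early step. They made up 22.1% of the models that fell early. Another 89 (6.94%) had risen early, against 7.42% of all. Falling on both steps need not be a steady decline. In 631 of the 1283 falling models (49.2%, against 17% of all) the E-L 35 mean was at least 2-fold above the E-L 34 mean. In 236 (18.4%, against 19.8% of all) it was the other way round. The choice of models favours the first of these, and how many of the 470 it holds was not counted. Of the models that rose in the last step, 223 (33.4%) had also risen early, against 7.42% of all tested models, and they made up 16.4% of the early rise. Another 74 (11.1%) had fallen early. Without the 3 libraries that stand apart, 790 of 1643 falling models (48.1%) had also fallen early and 296 of 875 rising models (33.8%) had also risen early. In that fit 16.1% of all tested models fell and 8.63% rose on the early step.

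Position offers another way to group models without names. With tested models in order along each chromosome, 6 stretches held at least 5 neighbours in a row that were called in the same direction, 5 of them falling and 1 rising. The stretches were picked by these calls, so the counts and levels at the 2 stages are a description, and so is their difference from Danfeng-2, which uses the same Cabernet Sauvignon change. Over all tested models that difference was called lower in Cabernet Sauvignon for 12.5%. Chromosome 16 had the highest falling share of the numbered chromosomes, with 82 of 683 tested models lower (12%, against 6.98% of all models), and 10.4% of its models outside the stretches named here fell. The other numbered chromosomes ran from 5.01% to 8.12%.

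The rising stretch lay on chromosome 6 from 15670201 to 15958286 and held 5 tested models, all on the plus strand. Its summed level was 809.8, 858.5 and 677.3 CPM in the ripe libraries and 210.0, 220.6 and 209.9 CPM in the colour-onset libraries, 3.66-fold higher in ripe skin. Each of the 5 rose without overlap, with log2 fold changes of 1.49 to 3.18. One model held 53.9% of the summed level in ripe skin. The earlier stages gave 150.6 ± 7.05 CPM (E-L 33) and 73.2 ± 12.5 CPM (E-L 34) (SD, n = 3 each), so ripe skin was its highest stage. In Danfeng-2 it was hardly read at any stage, with at most 0.403 CPM in any of the 12 libraries. A change there could not be detected from so few reads. Whether these models fit the sequence of Danfeng-2, another species, was not tested.

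A pair of falling stretches lay close together on chromosome 16, all their models on the minus strand. In the one from 16526043 to 16684265, 7 models had a summed level of 84.0, 85.0 and 113.2 CPM in ripe skin and 498.4, 497.8 and 502.6 CPM at colour onset, 5.31-fold lower in ripe skin. In the one from 16411757 to 16493132, 5 models had 111.5, 113.5 and 135.1 CPM in ripe skin and 375.8, 360.6 and 369.6 CPM at colour onset, 3.07-fold lower. The libraries of the stages did not overlap, and E-L 38 replicate 3 was the highest of its group in both. The fall followed a short peak. At E-L 33 and then E-L 34 the first stretch had 10.1 ± 0.807 and 2.70 ± 0.802 CPM, and the second 35.4 ± 1.93 and 3.93 ± 4.59 CPM (SD, n = 3; the last is 1.28 CPM without E-L 34 replicate 3).

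All 12 models of these chromosome 16 stretches overlap another model, one of them spanning the whole first stretch, so reads may be split among them and they may stand for fewer genes. By log2 fold change the first stretch ran from -5.99 to -1.91, and the second from -1.77 to -1.31 with 1 further model at 0 counts in ripe skin. In Danfeng-2 the same stretches also fell in the last step, with 7 of 7 and 4 of 5 models called lower, against 14.4% of all tested models. Their summed levels there were 35.7 ± 2.19 and 47.7 ± 1.39 CPM in ripe skin, against 307.5 ± 164.1 and 137.4 ± 79.1 CPM at colour onset (402.1 and 183.0 CPM without replicate 1). Without Cabernet Sauvignon E-L 38 replicate 1 or replicate 2, 3 of the 5 models of the second stretch were still called.

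Chromosome 2 from 4897744 to 4978260 held 6 neighbouring models that fell. Their summed level was 4.37, 6.75 and 5.22 CPM in ripe skin and 53.4, 44.5 and 48.9 CPM at colour onset, 8.98-fold lower with no overlap. None of them overlaps another model, and 3 had 0 counts in ripe skin. At E-L 33 the sum was 46.3 ± 1.77 CPM, with 2.86 CPM in E-L 34 replicates 1 and 2 on average and 16.4 CPM in replicate 3. In Danfeng-2 the summed level was 150.5 ± 6.10 CPM in ripe skin and 91.3 ± 9.08 CPM at colour onset (SD, n = 3 each). The sum does not stand for its members, of which 1 was called higher in Danfeng-2 and 2 lower. The difference between the cultivars was called for 5 of the 6 models, lower in Cabernet Sauvignon in each (6 of 6 without the 3 libraries that stand apart).

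Chromosome 4 held both remaining stretches. From 20407497 to 20508286, 6 models, VIT_04s0210g00060 among them, had a summed level of 7.88, 8.09 and 8.42 CPM in ripe skin and 105.8, 101.9 and 101.2 CPM at colour onset, 12.7-fold lower. Of these models 4 overlap another and 2 had 0 counts in ripe skin. In Danfeng-2 the same stretch had 247.0 ± 1.82 CPM in ripe skin and 194.5 ± 83.03 CPM at colour onset (146.6 CPM without replicate 1). No member was called higher there and 1 was called lower (2 without the libraries that stand apart). The difference was called for 5 of the 6 models, lower in Cabernet Sauvignon. From 2881184 to 2920694, 6 models of low level fell to a sum of 7.73, 7.94 and 6.71 CPM in ripe skin, against 23.7, 23.1 and 18.2 CPM at colour onset, 2.91-fold lower. Only 3 of these 6 were still called without E-L 35 replicate 1 or 3 or without E-L 38 replicate 2 or 3, and 2 by limma on log2(FPKM + 1). In Danfeng-2 it had 12.6 ± 1.31 CPM in ripe skin and 37.4 ± 13.7 CPM at colour onset (SD, n = 3 each; 45.3 CPM at colour onset without replicate 1), with 1 of the 6 models called higher there and 1 lower. The sum thus does not stand for its members. For 5 of the 6 the difference was called lower in Cabernet Sauvignon (5 lower and 1 higher without the libraries that stand apart).

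**Figure D4:**
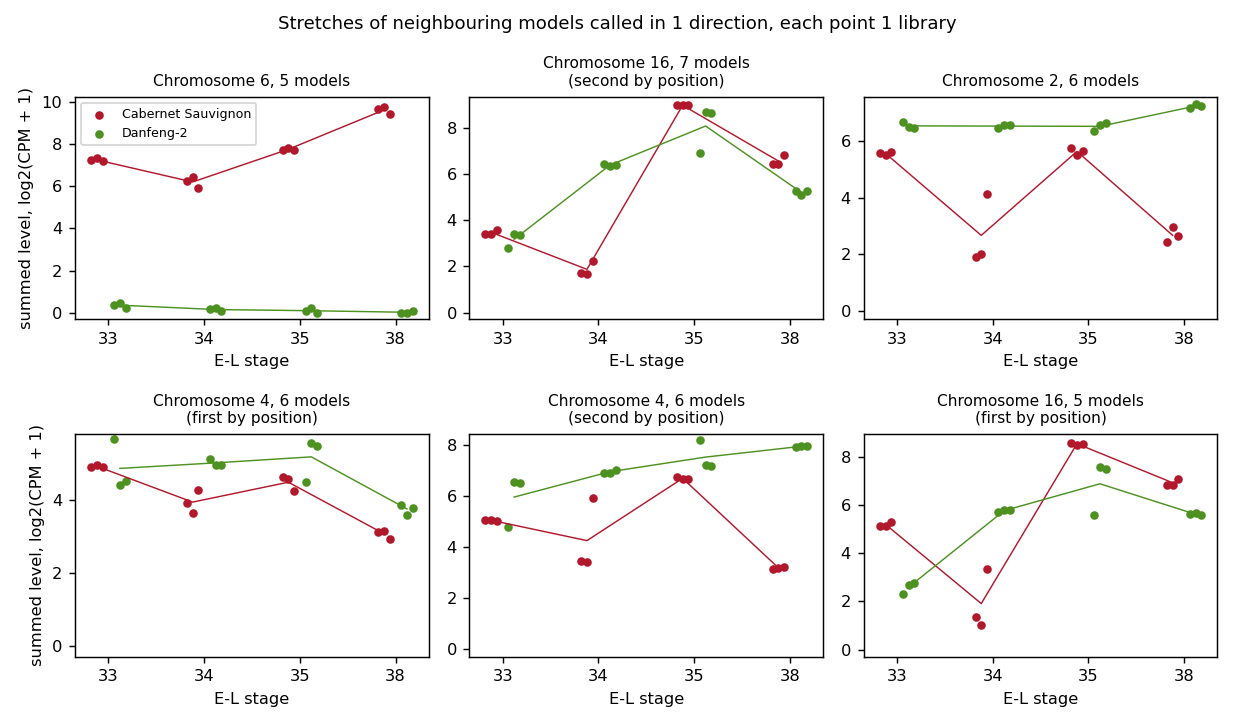
Summed level, as log2(CPM + 1), of 6 stretches of neighbouring models in every library by E-L stage, Cabernet Sauvignon in red and Danfeng-2 in green, with lines through the means of 3 libraries. The Cabernet Sauvignon points of the chromosome 6 stretch rise in ripe skin and those of the other 5 fall. In Danfeng-2 the sums on chromosome 16 and of the first stretch by position on chromosome 4 also fall. The sum on chromosome 2 goes up, with 1 of its models called higher there and 2 lower.

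Danfeng-2 passes through the same step with libraries of its own, which gives the last step of Cabernet Sauvignon something to be set against. Of the 667 models that rose in Cabernet Sauvignon, 135 (20.2%) also rose in Danfeng-2 and 134 (20.1%) fell there, where 9.92% and 14.4% of all tested models were called higher and lower in Danfeng-2. Of the 1283 that fell in Cabernet Sauvignon, 387 (30.2%) also fell in Danfeng-2 and 149 (11.6%) rose. The shared models made up 7.41% of the 1822 that rose in Danfeng-2 and 14.6% of the 2648 that fell. The median log2 fold change in Danfeng-2 was 0.00 for the Cabernet Sauvignon rise, -0.40 for the fall and -0.07 over all tested models (0.00, -0.28 and -0.06 without the libraries that stand apart). A model at 0 counts in both groups is fitted at 0, so the median of 0.00 does not show unchanged levels. Above 0 in Danfeng-2 were 44.7% of the rising models, 36.2% of the falling ones and 44.9% of all tested models. The models that fell in Cabernet Sauvignon took 5.57%, 5.53% and 5.603% of the counts of ripe Danfeng-2 skin, against 5.06%, 3.87% and 3.96% at colour onset, where the highest is replicate 1, a library that stands apart. VIT_06s0004g02560 alone held 0.888%, 0.885% and 0.882% of the counts of the ripe libraries, and without it the shares there were 4.68%, 4.65% and 4.72%. Without the 3 libraries that stand apart, 205 of 875 rising models (23.4%) also rose in Danfeng-2 and 194 (22.2%) fell. Of 1643 falling models, 495 (30.1%) also fell there and 270 (16.4%) rose. In that fit 12.2% of all tested models rose in Danfeng-2 and 16.5% fell.

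The difference between the cultivars was tested itself, as the Cabernet Sauvignon change minus the Danfeng-2 change. It was called for 4613 of all tested models (25.1%), with 2320 higher (12.6%) and 2293 lower (12.5%) in Cabernet Sauvignon. Of the 667 rising models, 344 (51.6%) rose more or against Danfeng-2 and 46 (6.9%) rose less. Of the 1283 falling models, 627 (48.9%) fell more or against Danfeng-2 and 62 (4.83%) fell less. For the other 277 and 594 no difference was called, which does not show that the cultivars changed alike. Since the models were chosen for a large change in Cabernet Sauvignon, one term of this difference, the excess in its direction is built in and the shares over all models are no measure of it; the counts are a description. Without the 3 libraries that stand apart, the difference was called in the Cabernet Sauvignon direction for 446 of 875 rising models and in the other for 87. Of 1643 falling models these counts were 875 and 128. In that fit it was called higher for 15.7% and lower for 15.8% of all tested models.

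**Figure D5:**
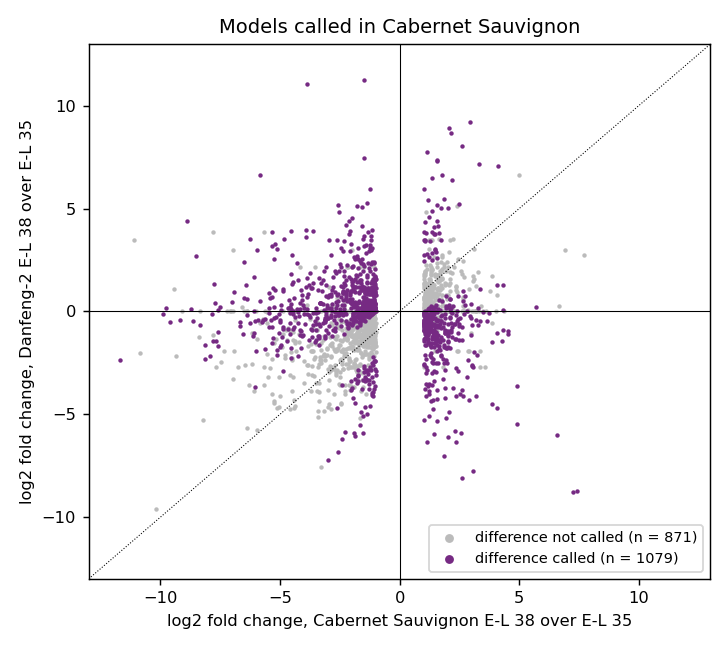
Log2 fold change over the last step of the 1950 models called in Cabernet Sauvignon (horizontal axis) and the same models in Danfeng-2 (vertical axis), purple where the difference between the cultivars was called and grey where it was not. The empty band in the middle comes from the 2-fold minimum in Cabernet Sauvignon; the dotted line marks equal change.

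Chosen by the same rule, the models with the highest and lowest differences between the cultivars had fold changes of opposite sign in them. Choosing by the largest differences itself favours opposite signs, so this is a description. VIT_03s0091g01240 on chromosome 3, from 7903958 to 7907634, had 31.3, 29.9 and 32.0 CPM in Cabernet Sauvignon in ripe skin and 13.01, 10.98 and 9.96 CPM at colour onset. In Danfeng-2 it had 0.290, 0.0813 and 0.412 CPM in ripe skin and 10.97, 19.8 and 18.9 CPM at colour onset, so it rose in the one cultivar and nearly vanished in the other. The difference of the log2 fold changes was 7.40 ± 0.39 (SE, adjusted p = 5.8e-11 from edgeR). VIT_05s0102g00030 on chromosome 5, from 21778406 to 21857508, had 56.3, 57.2 and 58.7 CPM in ripe skin and 5.23, 6.27 and 7.46 CPM at colour onset in Cabernet Sauvignon. In Danfeng-2 it had 2 counts in all in ripe skin and 1.03 ± 0.694 CPM at colour onset, an 18.9-fold lower level in ripe skin with a counting interval of 5.16 to 167.0. The difference was 7.29 ± 0.86 (SE, adjusted p = 1.3e-06 from edgeR). It was 10.28 without Danfeng-2 E-L 38 replicate 3, which holds both counts, and 6.64 without Danfeng-2 E-L 35 replicate 1. In the files 4 other models overlap it.

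VIT_06s0004g02560 on chromosome 6, from 3075721 to 3076606, had 711.2, 714.3 and 964.5 CPM in ripe skin and 11695.2, 11622.9 and 11500.1 CPM at colour onset in Cabernet Sauvignon, among the 10 highest there at colour onset. In Danfeng-2 it had 9677.8, 9672.9 and 9579.1 CPM in ripe skin and 9.37, 1.92 and 2.51 CPM at colour onset. Its high level thus lay at colour onset in the one cultivar and in ripe skin in the other, and the difference of the log2 fold changes was -14.90 ± 1.35 (SE, adjusted p = 6.9e-08 from edgeR), or -15.95 without Danfeng-2 E-L 35 replicate 1. VIT_00s0225g00230, on no assigned chromosome, from 14754484 to 14758787, had 52.5 ± 4.03 CPM in ripe skin and 89.7 ± 1.502 CPM at colour onset in Cabernet Sauvignon (SD, n = 3 each). In Danfeng-2 it had 17.1 ± 0.564 CPM in ripe skin and 0 counts at colour onset, at least 272-fold higher in ripe skin there. Its log2 fold change in Cabernet Sauvignon, -0.77, did not reach the 2-fold minimum, while the difference was called (adjusted p = 1.0e-09 from edgeR).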

How the data were processed

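Total RNA of grape skin was sequenced on an Illumina HiSeq instrument, per the labels' protocols, and TopHat2 is named in the submitters' processing notes. No source used here gives the counting program, its use of strand, the genome build or the annotation. Each library has a table of 27711 gene models in which, per the file headers, the authors deposited a count, an FPKM value and a normalized signal. The counts may in part be rounded estimates. Overlapping models and close copies can share reads. Whether the reads of both species were counted equally well on these models was not tested, which bears on every level compared between the cultivars.

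Counts of the 24 libraries were fitted as 8 groups with edgeR 4.0.16 in R 4.3.3 (filterByExpr, TMM scaling, quasi-likelihood test, Benjamini-Hochberg adjustment over 18375 tested models). A model was called where its adjusted p was under 0.05 and its change reached 2-fold. The comparisons were E-L 38 over E-L 35 in each cultivar, their difference, and E-L 34 over E-L 33 in Cabernet Sauvignon. Levels are CPM on TMM-scaled totals, and standard errors are the fitted log2 change divided by the root of the F statistic. Summed levels are sums of CPM, and intervals and floors cover counting error only. The edgeR fit was tested on simulated data for E-L 38 over E-L 35 in Cabernet Sauvignon, and the other comparisons and alternatives were not.

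The models named were the 2 highest and 2 lowest fold changes among called models that reached a mean of 20 CPM in either stage and whose Cabernet Sauvignon E-L 38 and E-L 35 libraries did not overlap. The samples, tests and rules were chosen with earlier results of these data known. Gene lists by name could not be used, since no identifier matched. Alternatives were RLE scaling, no filter and a stricter filter (50 counts in 3 libraries), a replicate block, a fit of only the groups compared, limma 3.58.1 (FPKM, as log2 with a pseudocount of 1 or 0.1), DESeq2 1.42.0, other thresholds, and leaving out libraries.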

Additional observations from a re-analysis of the deposited data

Results flagged for a closer look

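For each of the 8 models named in the text the last step differed between cultivars by edgeR's test of the difference, given here as the log2 fold change in Cabernet Sauvignon minus that in Danfeng-2. Some were chosen as extremes of this difference, the others as extremes of the Cabernet Sauvignon change, a part of it. That each differed was thus fixed or favoured by the choice, and is a description. The difference was 3.56 for VIT_11s0016g01560, which had 0.273 ± 0.289 CPM in ripe Danfeng-2 skin and 0.272 ± 0.157 CPM at colour onset, E-L 35 (SD, n = 3 each). It was 2.94 and 4.69 without Danfeng-2 E-L 38 replicate 1 or 3, and without Danfeng-2 E-L 35 replicate 3 it was not called (3.05, adjusted p = 0.056 from edgeR). It was -3.83 for VIT_00s0323g00070, which rose in both cultivars and more in Danfeng-2, with 424.7 ± 4.97 CPM in ripe skin there and 8.41, 0.372 and 0.188 CPM at colour onset, the highest being replicate 1, a library that stands apart; without it the difference was -7.20. It was -9.30 for VIT_04s0210g00060, near the threshold (adjusted p = 0.039 from edgeR). At the same thresholds that call was lost in 9 of 20 alternatives, with an adjusted p from edgeR of up to 0.12. Each of the 9 left out 1 library (any of Cabernet Sauvignon E-L 38 or of Danfeng-2 E-L 38 or E-L 35). The difference was -8.16 for VIT_06s0080g00980, and -11.06 without Cabernet Sauvignon E-L 38 replicate 3, which holds its only counts in that group. VIT_06s0080g00980 had 43.3 ± 1.31 CPM in ripe Danfeng-2 skin, against 59.7 ± 26.9 CPM at colour onset.

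The 4 models named for the difference itself had values of 7.40 for VIT_03s0091g01240, 7.29 for VIT_05s0102g00030, -14.90 for VIT_06s0004g02560 and -11.90 for VIT_00s0225g00230. The values of VIT_04s0210g00060 and VIT_00s0225g00230 involve a group at 0 counts, so their size depends on the prior count and is no bound.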

How the results depend on the processing

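Of the 8 named models, the 4 named for the Cabernet Sauvignon step kept its direction and call, and the 4 named for the difference kept those of the difference, in every alternative that gave them an adjusted p. The difference of the first 4, tried in alternatives chosen after seeing the data, kept its direction, and its call was lost for VIT_04s0210g00060 in 9 and for VIT_11s0016g01560 in 1. Other thresholds were not among these alternatives. At an adjusted p below 0.01 the difference of VIT_04s0210g00060 would not be called either (adjusted p = 0.039 from edgeR). DESeq2 gave no adjusted p for 4 of the 8 models (VIT_00s0323g00070, VIT_04s0210g00060, VIT_06s0080g00980 and VIT_06s0004g02560). With limma on log2(FPKM + 1), whose pseudocount shrinks changes of low models, 1182 models were called in Cabernet Sauvignon, 731 of them lower, and 1714 were called lower in Danfeng-2. With no fold minimum the counts were 5732 in Cabernet Sauvignon (2834 higher, 2898 lower), 9207 in Danfeng-2 (4209 higher, 4998 lower) and 7716 for the difference (3990 higher, 3726 lower). With at least 4 models a stretch there were 11 stretches. Leaving out 1 library of the groups compared gave 1669 to 1765 called models in Cabernet Sauvignon (563 to 625 higher, 1090 to 1149 lower), 4204 to 4962 in Danfeng-2 (1683 to 2216 higher, 2461 to 2746 lower) and 4298 to 5226 for the difference (2167 to 2509 higher, 2131 to 2717 lower). Without the 3 libraries that stand apart, 2518 models were called in Cabernet Sauvignon (875 higher, 1643 lower), against 1950 in the main fit. The same fit called 5339 in Danfeng-2 and 5867 for the difference. The other counts of calls stayed within 1.5 times. Replicate numbers are shared across stages. Whether they pair the libraries was checked only between ripe and colour-onset Cabernet Sauvignon, where correlations of library deviations ran from -0.01 to 0.01. These deviations may be mostly counting noise, so values near 0 cannot exclude pairing, and the other groups were not checked. With a replicate block 1919, 4424 and 4513 models were called. Of the stretches, the one on chromosome 6 and the 7 models on chromosome 16 kept all their calls in 17 alternatives, while that on chromosome 4 from 2881184 kept 2 to 6, that from 20407497 3 to 6, that on chromosome 2 4 to 6, and the other on chromosome 16 3 to 5. DESeq2 gave no adjusted p for 3 models of the stretch on chromosome 4 from 20407497. Models of a few counts, among them most of those at 0 counts in 1 stage, are where depth limits the values.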
